A study of Mus musculus with 18 samples.

Results

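Hedgehog signaling genes were followed through mouse skin carcinogenesis with and without Zfp36. The set holds 8 of the 52636 genes in the count table, taken by symbol. It comprises the ligand Shh, the receptor Ptch1, the decoy receptor Hhip, the transducer Smo, the inhibitor Sufu and the transcription factors Gli1, Gli2 and Gli3. The rule used no measured value, but the set was proposed with results of these data known. RNA-seq had been performed on epidermal cells sorted as EpCAM+ CD45- CD140a- CD31-, although the labels name whole skin as the source. Zfp36 encodes tristetraprolin (TTP), which binds AU-rich elements in 3′ untranslated regions (3′ UTRs) and speeds mRNA decay.

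All mice were on a C57BL/6 background and carried loxP-flanked Zfp36. Zfp36 fl/fl mice served as littermate controls. In Zfp36ΔEP mice (ΔEP, labelled ΔK14), Cre driven by the human keratin 14 promoter removed the gene in epidermal cells. Mice were 8 weeks old when treatment began, and the age at collection is not in the labels. DMBA, a mutagen, was applied on days 0 and 3, and TPA, a phorbol ester that promotes tumors, 2 times a week for 12 to 40 weeks. Each genotype gave cells from mock skin, from nontumoral skin next to the tumors (treated) and from papillomas (tumor). The labels call the treated cells tumoral keratinocytes. Each of the 6 groups had 3 columns. Mock ΔEP replicates 2 and 3 held identical counts and were used once, which left 17 libraries and n = 2 in that group. Nothing in the labels says that replicates came from separate animals, so p-values measure only the spread between these samples, which may be technical.

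In Hedgehog signaling, SHH binds PTCH1 and so frees SMO to act at the primary cilium. SMO then releases the GLI factors from SUFU and from proteolytic processing. GLI2 serves mainly as an activator, GLI3 mainly as a repressor, and GLI1 is an activator that is itself induced by the pathway. Ptch1 and Hhip are also targets, and their products limit the signal. In skin, SHH from the hair matrix drives growth of the follicle in anagen, and constant activity of the pathway underlies basal cell carcinoma.

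Total counts ran from 2808550 to 9617985 a library, and levels are given in CPM, that is counts scaled to a common library size with TMM normalization. Zfp36 ranged from 152 to 716 CPM in the 9 fl/fl libraries and from 10.1 to 38.6 CPM in the 8 ΔEP libraries, without overlap at any stage. Epcam, Krt5 and Krt14 were present in all 17 libraries. In both genotypes mock replicate 1 differed from the rest of the mock libraries. Keratinocyte markers (Epcam, Krt5, Krt14, Trp63, Krt1 and Krt10) summed to 3369 in fl/fl and 3272 CPM in ΔEP mock replicate 1, against at least 17413 CPM in the others. Markers of the hair matrix and shaft (Lef1, Msx2, Hoxc13, Krt71, Krt25, Krt35 and Dlx3) summed to 1752 CPM and 1787 CPM in those libraries. They summed to between 12.1 and 17.7 CPM in the other mock libraries, to between 440 and 1211 CPM in treated skin and to between 7.41 and 75.4 CPM in tumors. Among fl/fl tumors, replicate 1 differed from replicates 2 and 3, with 198 CPM of sebaceous markers (Scd1, Mc5r, Pparg and Elovl3) against 3347 and 6265 CPM. It also had the fewest counts of all libraries.

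Because the mice differ in TTP, the 3′ UTRs of the 8 transcripts were searched for the heptamer TATTTAT, a core of its binding motif, on the mRNA strand. The longest annotated 3′ UTR of each gene was used (GENCODE vM21, GRCm38). The heptamer was found in Shh, Ptch1 and Hhip, that is in 3 of 8 members, against 27.6% of the 20939 genes of the table with a 3′ UTR. The 3′ UTR of Hhip is also the longest of the set, with 6480 bases against 1040 in Shh and 3205 in Ptch1. The sites are shown with the heptamer in capitals, 5′ to 3′ as DNA letters.
Shh, bases 273 to 279 of the 3′ UTR, chr5:28457565-28457593, minus strand: cctctcctggcTATTTATttgtttcgtat
Ptch1, bases 2526 to 2532, chr13:63508990-63509018, minus strand: atctttgctgaTATTTATaattttgtatc
Ptch1, bases 2851 to 2857, chr13:63508665-63508693, minus strand: gccatataattTATTTATatgaaaattta
Hhip, bases 729 to 735, chr8:79971587-79971615, minus strand: tttctgttacaTATTTATattttttattt
Hhip, bases 3500 to 3506, chr8:79968816-79968844, minus strand: ccactctcctgTATTTATcttggttttca
Hhip, bases 4721 to 4727, chr8:79967595-79967623, minus strand: tgaatgtttatTATTTATagattcaaaat
Hhip, bases 6155 to 6161, chr8:79966161-79966189, minus strand: ccatgtatataTATTTATctatctgtaca
Hhip, bases 6388 to 6394, chr8:79965928-79965956, minus strand: ttaatttaataTATTTATgtaaatgcatg
No member held the full nonamer TTATTTATT, which was present in 7.66% of genes. The shorter pentamer ATTTA, which every heptamer contains, was found in 6 of 8 members and in 65.2% of genes. Smo and Sufu had none of these motifs. Gli1, Gli2 and Gli3 had the pentamer alone.

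Promoters were read because Ptch1, Hhip and Gli1 are known targets of the GLI factors. The RefSeq promoter windows (GRCm38.p6, 300 bases) included 6 of the 8 members, all but Shh and Gli1. The GLI consensus GACCACCCA was searched on both strands and was found in 0 of 6 windows and in 0.253% of 32851 promoters. Its core ACCACCC, which the consensus contains, was found in 1 of 6, the window of Gli2, and in 4.61% of promoters. The match lies on the opposite strand and starts 205 bases before the start site, and its letters are in capitals.
Gli2, chr1:119053807-119053835, read on the minus strand: atccccctccaGGGTGGTgtccccccacc
A match of letters is a description of the window only.

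The ligand gene Shh (ENSMUSG00000002633, chromosome 5, 28456815 to 28467256, minus strand) was high in some skin libraries and nearly absent from tumors. It reached 22.1 CPM in mock fl/fl replicate 1, against 0.786 and 0.387 CPM in replicates 2 and 3. In mock ΔEP cells the pair of libraries had 20.03 and 0 CPM, and the 0 allows up to 1.08 CPM. The libraries with high Shh in mock skin were those with high hair matrix markers.

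After DMBA and TPA, Shh was present in every skin library. It measured 21.6, 7.68 and 5.36 CPM in treated fl/fl cells and 23.9, 10.6 and 16.9 CPM in treated ΔEP cells. Tumors held 1 count in each fl/fl library and 1 count in the 3 ΔEP libraries together. Pooled over libraries, 275 counts in treated skin stood against 3 in tumors of fl/fl mice, a ratio of rates of 49.6 (95% counting interval 16.8 to 242). In ΔEP mice 314 counts stood against 1, and the counting interval of the ratio was 44.5 to 9905. Exons of Shh overlap those of 9530036O11Rik and Gm26894 on the opposite strand, and the use of strand in counting is not given in the sources used here. Reads of these genes can therefore not be told apart from those of Shh.

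**Figure D1:**
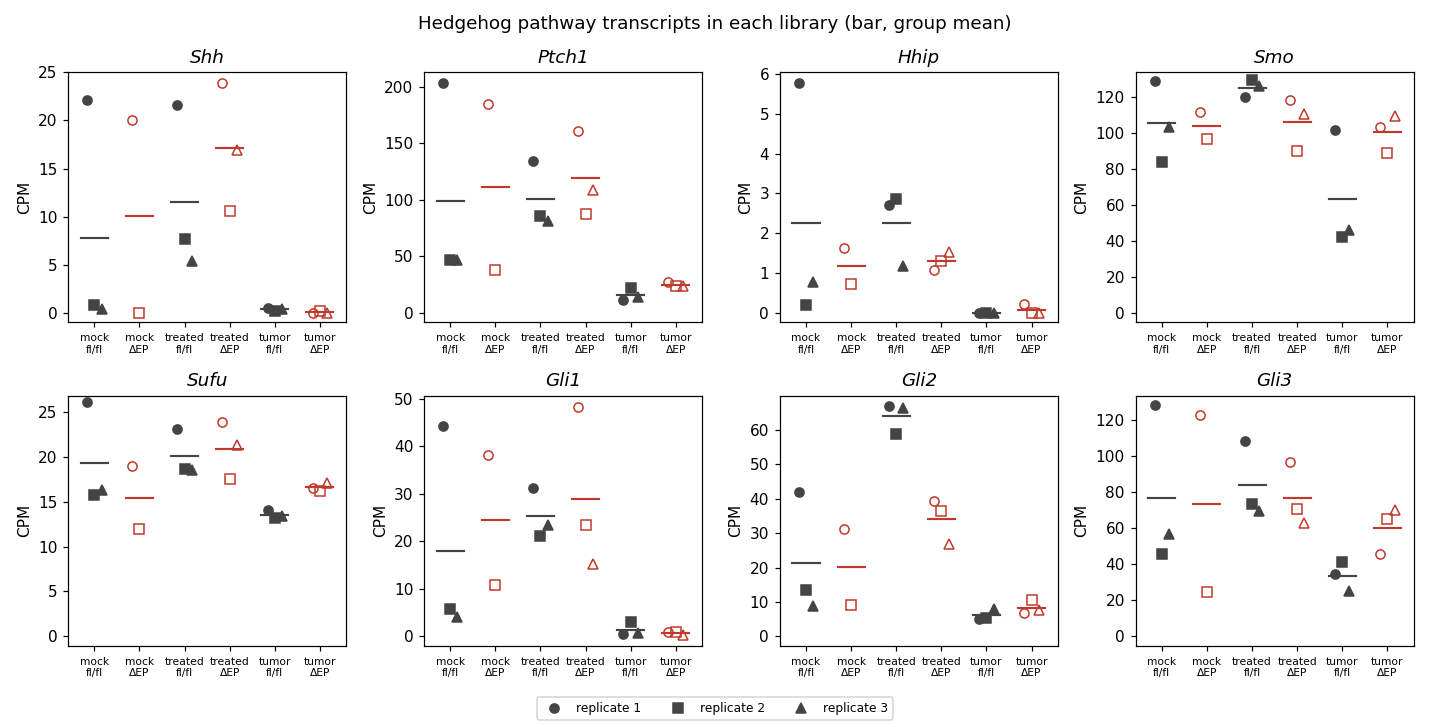
Level of each of the 8 genes in every library, in CPM on a linear axis, with fl/fl in filled gray, ΔEP in open red, symbols for the replicate numbers of the labels and a bar for the group mean. Mock replicate 1 of both genotypes lies above the other mock libraries for all 8 genes, and Shh, Ptch1, Gli1 and Gli2 are lower in all 6 tumor libraries than in all 6 treated libraries.

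Ptch1 (ENSMUSG00000021466, chromosome 13, 63508328 to 63573598, minus strand) followed the same order at a higher level. Mock fl/fl libraries had 204, 46.4 and 46.4 CPM, and mock ΔEP libraries had 185 and 38.2 CPM. Treated skin had 134, 85.3 and 81.6 in fl/fl and 161, 87.5 and 108 CPM in ΔEP mice.

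Tumor levels of Ptch1 were 11.5, 21.8 and 14.1 CPM in fl/fl mice and 27.1, 23.6 and 23.9 CPM in ΔEP mice. No tumor library overlapped with any skin library of either genotype. Within the tumors, every ΔEP library was above every fl/fl library. How many of all genes separated the genotypes in this way was not counted, here or for the members below.

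Gli1 (ENSMUSG00000025407, chromosome 10, 127329882 to 127341974, minus strand), the usual readout of pathway activity, was likewise uneven in mock skin. It measured 44.2, 5.70 and 4.06 in fl/fl and 38.2 and 10.8 CPM in ΔEP cells. Treated fl/fl cells had 31.3, 21.1 and 23.4 CPM, and treated ΔEP cells had 48.3, 23.5 and 15.2 CPM. All tumor libraries were below all skin libraries, with 0.502, 3.05 and 0.656 in fl/fl and 0.895, 0.908 and 0.190 CPM in ΔEP mice. Those levels rest on 1 to 20 counts in fl/fl and 1 to 5 counts in ΔEP tumors. Exons of Gli1 overlap those of Arhgap9 and Gm47200 on the opposite strand.

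Gli2 (ENSMUSG00000048402, chromosome 1, 118834132 to 119053619, minus strand) had its highest level in treated fl/fl skin. There it measured 66.9, 58.8 and 66.4 CPM, above every mock library (fl/fl with 42.1, 13.4 and 8.80 CPM, ΔEP with 31.1 and 9.01 CPM). Treated ΔEP libraries were lower, at 39.5, 36.4 and 26.7 CPM, and did not overlap with treated fl/fl. Tumors held 5.02, 5.34 and 7.87 in fl/fl and 6.93, 10.5 and 7.60 CPM in ΔEP mice.

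Gli3 (ENSMUSG00000021318, chromosome 13, 15463235 to 15730026, plus strand) was lower in tumors by less than the other GLI genes. Mock skin had 128, 45.8 and 56.7 in fl/fl and 122 and 24.5 CPM in ΔEP mice. Treated skin had 108, 73.0 and 69.6 in fl/fl and 96.5, 70.4 and 62.55 CPM in ΔEP mice. Tumors had 34.6, 41.2 and 24.9 in fl/fl and 45.4, 65.0 and 70.1 CPM in ΔEP mice, without overlap between the genotypes. Exons of Gli3 overlap those of Gm6556 on the opposite strand.

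Smo, which passes the signal on, and Sufu, which holds the GLI factors back, varied over the narrowest range of the set. Smo (ENSMUSG00000001761, chromosome 6, 29735503 to 29761365, plus strand) lay between 83.7 and 130 CPM in the skin libraries. Treated fl/fl cells had 120, 130 and 126 CPM and treated ΔEP cells 118, 90.2 and 111 CPM, without overlap. In ΔEP tumors it was still 103, 88.6 and 109 CPM, and in fl/fl tumors 102, 42.3 and 45.9 CPM. The fl/fl tumor with the high value is replicate 1, the library with few sebaceous transcripts. Sufu (ENSMUSG00000025231, chromosome 19, 46396896 to 46488804, plus strand) ranged from 11.9 to 26.1 CPM in skin, and the tumors averaged 13.5 ± 0.466 CPM in fl/fl against 16.6 ± 0.474 CPM in ΔEP mice (SD, n = 3), also without overlap.

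Hhip (ENSMUSG00000064325, chromosome 8, 79965851 to 80058006, minus strand) was the scarcest member. It reached 5.77 CPM in mock fl/fl replicate 1 and at most 2.85 CPM in the other skin libraries. No count was found in the 3 fl/fl tumors, where 0 allows between 0.458 and 1.505 CPM, and a single count in the 3 ΔEP tumors together. Its level was at least 8.48-fold higher in treated fl/fl skin than in the tumors, against a floor of 3 counts over the tumor group. Exons of Hhip overlap those of Gm27820 on the opposite strand.

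Positions are those of GRCm38 in the annotation, and each range spans the whole gene. Per kilobase of annotated exon, Smo was the most abundant of the 8 transcripts in all 6 groups and Hhip the least. Treated fl/fl skin had 22.3 ± 0.853 CPM per kb of Smo (SD, n = 3), followed by 9.32 ± 0.664 of Gli2, 8.72 ± 2.23 of Gli3 and 7.07 ± 2.06 of Ptch1. Gli2, Gli3 and Ptch1 lay within their spread of each other, and with the longest transcript as length Gli2 came after the other two. Next came Gli1 with 5.05 ± 1.07 and Shh with 4.06 ± 3.09 CPM per kb, whose spreads overlapped, and Sufu with 2.61 ± 0.332. In fl/fl tumors the order changed to Smo (11.3 ± 5.94), Gli3 (3.50 ± 0.856), Sufu (1.76 ± 0.0606), Ptch1 (1.12 ± 0.378), Gli2 (0.885 ± 0.227), Gli1 (0.281 ± 0.287) and Shh (0.115 ± 0.0613). Sufu thus stood above Ptch1, Gli2, Gli1 and Shh in tumors of both genotypes and below them in treated skin. With the longest transcript as length this order also held in tumors, but in treated fl/fl skin Sufu (4.44 ± 0.564) then came just above Shh (4.06 ± 3.09).

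**Figure D2:**
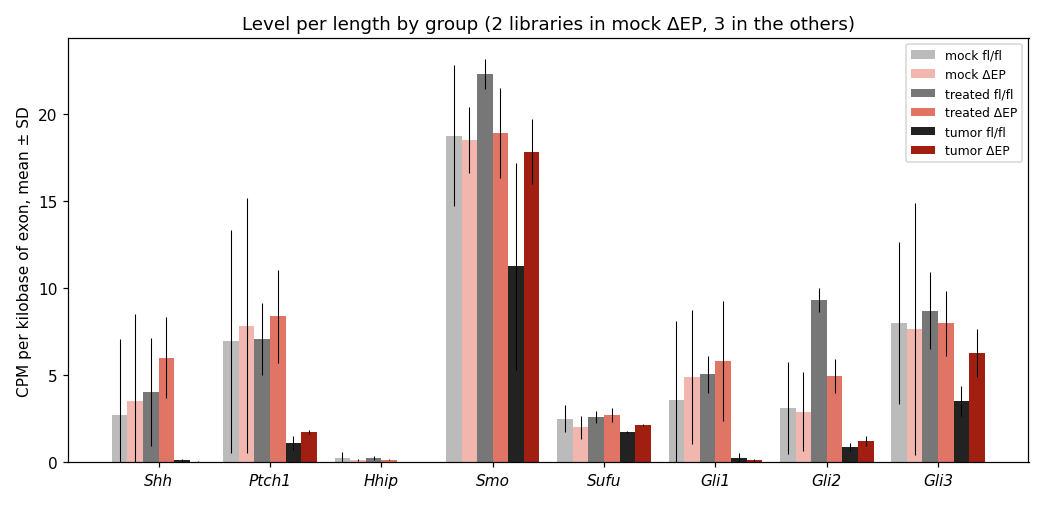
Mean CPM per kilobase of annotated exon for each gene in each of the 6 groups, on a linear axis from 0, with bars for the group and lines for ± SD over 3 libraries (2 in mock ΔEP). Smo stands highest in every group, and the tumor bars of Shh and Gli1 lie near 0.

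The first question was how the pathway differed between tumors and the treated skin around them. In fl/fl mice 5 of the 7 members tested fell, at an adjusted p under 0.05 and a change of more than 2-fold by edgeR's quasi-likelihood test. In this comparison 18% of the 15362 genes tested were called, and 10.5% were called lower. Gli2 fell by 3.42 on the log2 scale (SE 0.25, adjusted p = 0.000981) and Gli1 by 3.87 (SE 0.52, adjusted p = 0.00317). Ptch1 fell by 2.66 (SE 0.31, adjusted p = 0.00235) and Gli3 by 1.34 (SE 0.26, adjusted p = 0.0113). The call for Shh had an adjusted p of 0.00586, with a fold that rests on 3 tumor counts. Smo, with a log2 fold change of -1.03 (SE 0.33, adjusted p = 0.053), and Sufu, with -0.60 (SE 0.22, adjusted p = 0.0777), did not pass. DESeq2 (-1.01, adjusted p = 0.0314) and edgeR's exact test (-1.03, adjusted p = 0.019) called Smo as well. These fits called 21% and 23.3% of all genes. Hhip did not reach the count filter. The median log2 fold change was -2.66 over the 7 members and -0.02 over all genes tested. Shh and Gli1 reached the count filter here only through treated skin, since neither reached it when tumors alone were compared. They could therefore only come out lower, which limits what their calls and the median show.

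Without fl/fl tumor replicate 1, Smo passed as well with a log2 fold change of -1.53 (adjusted p = 0.00025). Gli3 no longer passed without treated fl/fl replicate 1 (-1.12, adjusted p = 0.0541). Gli1 had a log2 fold change of -5.37 without fl/fl tumor replicate 2, which held 20 of its 23 tumor counts. Gli2, Gli1, Ptch1 and Shh were called with each library left out in turn.

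In ΔEP mice 4 of 7 members tested fell between treated skin and tumors, while 26% of 15289 genes were called and 15.5% were called lower. The 4 were Gli1 with a drop of 5.51 on the log2 scale (log2 fold change -5.51, SE 0.62, adjusted p = 0.000659), Ptch1 (-2.35, SE 0.25, adjusted p = 0.000502), Gli2 (-2.13, SE 0.26, adjusted p = 0.000922) and Shh (adjusted p = 0.000264, resting on 1 tumor count). Gli3 (-0.45, SE 0.23, adjusted p = 0.162), Sufu (-0.42, SE 0.20, adjusted p = 0.123) and Smo (-0.18, SE 0.17, adjusted p = 0.451) did not pass. Gli1, Ptch1, Gli2 and Shh were also called with each library left out in turn. The median log2 fold change was -2.13 over the 7 members and -0.03 over all genes tested. As in fl/fl mice, Shh and Gli1 reached the count filter only through treated skin and could only come out lower.

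Markers of other cell types differed between the same groups. Of the 7 hair matrix and shaft markers, 6 were called lower in fl/fl and 7 in ΔEP tumors, and single tumor libraries had Lef1 or Krt35 at 0. Over all genes 10.5% were called lower in fl/fl and 15.5% in ΔEP tumors. The 8 fibroblast and dermal papilla markers summed to between 377 and 957 CPM in treated skin and to between 33.6 and 390 CPM in tumors, although CD140a+ cells were excluded by the sort. A large part of that sum in treated skin was Dcn, with between 164 and 843 CPM in treated skin and between 0.190 and 10.1 CPM in tumors. Of the 6 fibroblast markers tested, 2 were called lower in fl/fl tumors (Dcn and Pdgfra) and 1 in ΔEP tumors (Dcn), where 3 of 6 values were above 0. The median log2 fold change of these 6 was -0.85 in fl/fl and -0.01 in ΔEP mice. Melanocyte markers summed to between 38.6 and 247 CPM in treated skin against between 8.85 and 28.8 CPM in tumors, and Schwann cell markers to between 3.72 and 13.8 against between 0.328 and 2.18 CPM. The summed Merkel cell markers (Krt20, Atoh1, Krt18 and Krt8) were higher in tumors, with between 4.52 and 39.9 against between 1.86 and 4.18 CPM. In every tumor library only 2 of these 4 markers had any count, so the sum does not describe the list as a whole. The part of these cells in the fall of Shh, Ptch1, Gli1 and Gli2 was not tested. In sorted bulk samples, fewer cells of a type and less RNA per cell cannot be told apart.

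**Figure D3:**
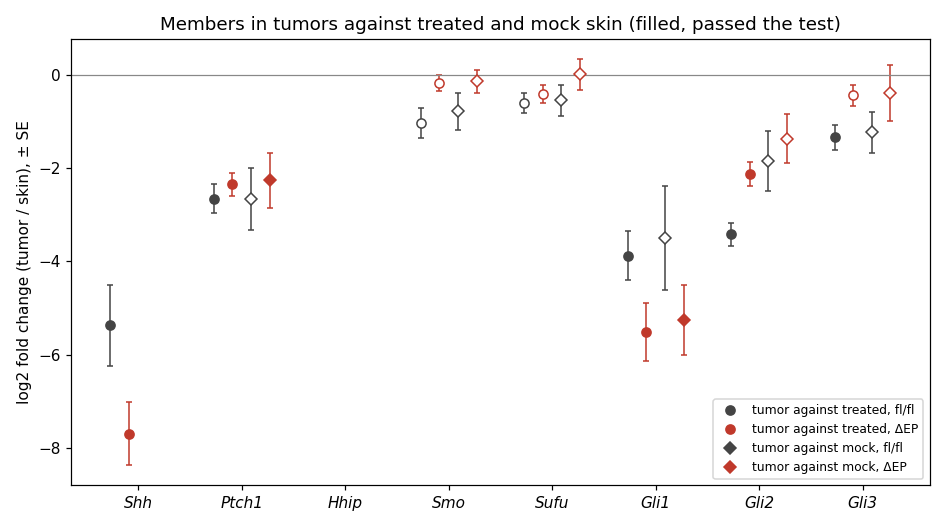
Log2 fold change ± SE of each member in tumors against treated skin (circles) and mock skin (diamonds) in fl/fl (gray) and ΔEP mice (red), with filled symbols for changes that passed the test. Values for Shh rest on 3 counts in fl/fl and 1 count in ΔEP tumors, and members without a symbol did not reach the count filter. Ptch1, Gli1, Gli2, Gli3 and Smo lie below 0 in all 4 comparisons, and Sufu in all but ΔEP tumors against mock skin.

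Tumors were also set against mock skin, a comparison that uses the same tumor libraries. In fl/fl mice 0 of the 6 members tested were called by edgeR's quasi-likelihood test, with 4.11% of all genes called and 1.88% called lower. All 6 had values below 0 and 4 had an unadjusted p under 0.05, against 4038 of 15394 genes. The largest were Gli1 (-3.50, SE 1.12, adjusted p = 0.104), Ptch1 (-2.67, SE 0.66, adjusted p = 0.0635) and Gli2 (-1.85, SE 0.64, adjusted p = 0.121). Gli3 (-1.24, adjusted p = 0.132), Smo (-0.78, adjusted p = 0.25) and Sufu (-0.55, adjusted p = 0.333) were closer to 0. DESeq2 called Ptch1, Gli1 and Gli2, and edgeR's exact test Ptch1 and Gli1, with 14.3% and 13.4% of all genes called.

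These values rested in part on mock replicate 1. Without mock fl/fl replicate 1, the log2 fold change of Gli1 was -1.54 (adjusted p = 0.162) and that of Gli2 was -0.85 (adjusted p = 0.168). Ptch1 then passed with a smaller change (-1.53, adjusted p = 0.0171), while 21% of all genes were called.

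In ΔEP mice 2 of 6 members fell against mock skin, where 14.3% of all genes were called and 7.22% called lower. These were Gli1 (-5.26, SE 0.75, adjusted p = 0.0121) and Ptch1 (-2.26, SE 0.59, adjusted p = 0.0473). In both genotypes Gli1 reached the count filter here only through mock skin. Gli2 (-1.37, adjusted p = 0.121), Gli3 (-0.39, adjusted p = 0.681), Smo (-0.15, adjusted p = 0.703) and Sufu (0.01, adjusted p = 0.993) did not pass. With mock ΔEP replicate 1 left out, a single mock library remained, which was assumed to vary like the tumors. Gli1 was still called (-4.02, adjusted p = 0.00293), with 28.1% of all genes. Ptch1 was not (-0.65, adjusted p = 0.0983), and Gli3 turned to a rise of 1.26 (adjusted p = 0.022). Without mock ΔEP replicate 2, the single mock library left was replicate 1, the one with high hair matrix markers. The log2 fold changes were then -5.81 for Gli1 and -2.90 for Ptch1, and they describe that library only. Leaving out any 1 of the ΔEP tumors ended both calls, with adjusted p between 0.0524 and 0.161 but similar values, from -5.57 to -4.82 for Gli1 and from -2.32 to -2.23 for Ptch1. Shh and Hhip were too scarce for the filter, and 199 of the 207 counts of Shh in mock fl/fl skin were in replicate 1.

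The effect of treatment on nontumoral skin was examined next, with the same mock and treated libraries as above. By edgeR's quasi-likelihood test 0 of 8 members tested in fl/fl and 0 of 7 in ΔEP mice were called between treated and mock skin, as were 0% of all genes in both genotypes. DESeq2 and the exact test also called 0 members, with 0.711% and 0.626% of all genes called in fl/fl and 0.447% and 0.422% in ΔEP mice. In the quasi-likelihood test 1 member in fl/fl and 0 in ΔEP mice had an unadjusted p under 0.05. Over all genes 913 of 16601 and 763 of 15891 had one. The member was Gli2, with a log2 fold change of 1.58 in fl/fl (SE 0.57, adjusted p = 0.849) and 0.76 in ΔEP mice (SE 0.52).

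Mock fl/fl replicate 1 set the outcome for Shh, Ptch1, Gli1 and Gli2. With all libraries the log2 fold changes of Shh, Gli1 and Ptch1 were 0.57, 0.48 and 0.03. Without that library 4 members rose in treated fl/fl skin. Gli2 rose by 2.59 (adjusted p = 0.000982), Gli1 by 2.45 (adjusted p = 0.00199), Shh by 4.47 (adjusted p = 0.0105) and Ptch1 by 1.15 on the log2 scale (adjusted p = 0.0152). Over all genes the calls went from 0 to 2587, or 15.1%. The levels of Shh, Gli1 and Ptch1 in the library left out lay above the range of treated fl/fl skin, as did its hair matrix markers, whereas Gli2 lay below it. The part of the hair matrix in these levels was not tested.

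**Figure D4:**
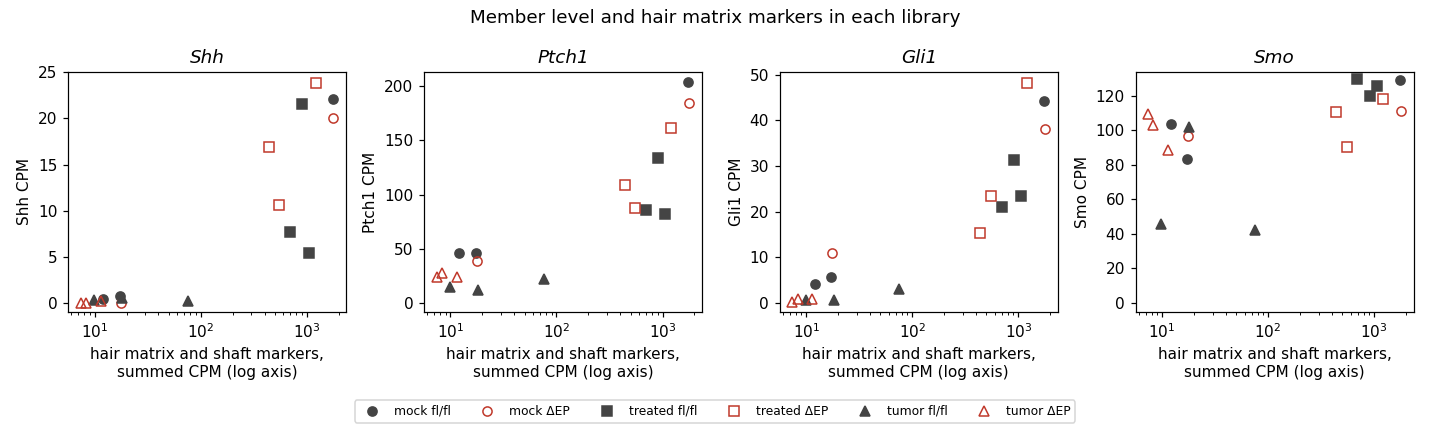
Level of Shh, Ptch1, Gli1 and Smo in CPM (linear axis) against the summed CPM of 7 hair matrix and shaft markers (log axis) in each of the 17 libraries, with symbols for stage and filled gray for fl/fl or open red for ΔEP. The 8 libraries with sums between 440 and 1787 CPM hold the highest levels of Shh, Ptch1 and Gli1, while Smo lies between 90.2 and 130 CPM in them and between 42.3 and 109 CPM in the others.

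Across the 17 libraries, the members themselves formed a graded pattern on the log2 scale. Ptch1 and Gli1 had a Pearson r of 0.936 (Spearman rho 0.927), Shh and Ptch1 of 0.902 and Gli1 and Gli2 of 0.863. Smo correlated least with the others, with r between 0.474 with Gli1 and 0.661 with Sufu. These libraries share stages, and the values describe them without a test. The transcripts closest to each member among 18252 genes were Cldn10, Hoxd8 and Dcn for Gli1 (r of 0.9895, 0.973 and 0.973). For Shh they were 9530036O11Rik, Gm45604 and Cdh6 (0.967, 0.965 and 0.959), the first of which overlaps Shh itself. For Ptch1 they were Nudt16, Arhgap29 and Scube1 (0.964, 0.962 and 0.961). For Gli2 they were AC154314.1, Fam26e and Adamts20 (0.955, 0.951 and 0.948), and for Gli3 Gm26811, Prrc2a and Ubap2 (0.9335, 0.918 and 0.914).

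The genotypes were then compared within each stage. In mock skin 0 of 7 members were called by edgeR's quasi-likelihood test, as were 0% of all genes. No member had an unadjusted p under 0.05, against 253 of 15920 genes. The targeted gene Zfp36 was not called either, at a log2 fold change of -4.13 (SE 0.86, unadjusted p = 0.00395). The absence of calls, with n = 2 in mock ΔEP skin, therefore does not show equal levels. In mock skin DESeq2 and the exact test also called 0 members, with 0.0188% and 0.0126% of all genes called. The ranges overlapped for all 8 members.

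In treated skin 0 of 7 members were called, and 0.00616% of all genes. That share is 1 gene, Zfp36 itself (log2 fold change -3.99, adjusted p = 0.0391). Among the members only Gli2 had an unadjusted p under 0.05, against 901 of 16232 genes. It was lower in ΔEP mice, by 0.92 on the log2 scale, with a log2 fold change of -0.92 (SE 0.19, adjusted p = 0.716) and 3 of 3 libraries below every fl/fl library. Its values ranged from -1.04 to -0.75 with single libraries left out. Shh (0.51, adjusted p = 0.935), Ptch1 (0.22, adjusted p = 0.945), Gli1 (0.17, adjusted p = 0.968), Sufu (0.03, adjusted p = 0.987), Gli3 (-0.15, adjusted p = 0.956) and Smo (-0.26, adjusted p = 0.909) lay closer to 0. DESeq2 and the exact test also called 0 members, with 0.222% and 0.271% of all genes called. Gli2 nevertheless had an adjusted p of 0.0393 with DESeq2, 0.0344 with the exact test and 0.0083 without the low-count filter, at a change under 2-fold. Over all its alternatives the adjusted p ran from 0.0083 to 1.0.

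In tumors 0 of 5 members tested were called, and 0.0284% of all genes. All 5 values were above 0 in ΔEP mice. Gli3 was the only one with an unadjusted p under 0.05, with a log2 fold change of 0.70 (SE 0.26, adjusted p = 0.296) and no overlap between the genotypes. Smo (0.55, SE 0.33, adjusted p = 0.48), Ptch1 (0.48, SE 0.28, adjusted p = 0.471), Gli2 (0.32, SE 0.34, adjusted p = 0.707) and Sufu (0.16, SE 0.22, adjusted p = 0.786) did not pass. Ptch1 and Sufu did not overlap between the genotypes either. The share of all genes without overlap was not counted, so these separations describe the libraries only. DESeq2 and the exact test called none of the 5, against 2.6% and 2.62% of all genes. An unadjusted p under 0.05 in the quasi-likelihood test was found for 1975 of 14067 genes.

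Smo depended on 1 fl/fl tumor. Without fl/fl tumor replicate 1 it was higher in ΔEP tumors by a log2 fold change of 1.08 (adjusted p = 0.0035), the only call among the members, in a fit that called 16.9% of all genes. Sebaceous markers summed to between 129 and 207 CPM in ΔEP tumors, near the 198 CPM of fl/fl replicate 1 and below the 3347 and 6265 CPM of the other fl/fl tumors. Their part in the levels of Smo was not tested. Of the 3 transcripts with the TTP heptamer, only Ptch1 was abundant enough in tumors to be tested.

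Whether the genotype changed the course from one stage to the next was tested as an interaction. No member was called between treated and mock skin (0 of 8, with 0% of all genes called) or between tumor and mock skin (0 of 7, with 0% called). None had an unadjusted p under 0.05, against 257 of 17694 and 1423 of 17388 genes. DESeq2 also called 0 members in all 3 interactions. It called 0% of all genes for treated and mock skin, 0.178% for tumor and mock skin and 1.35% for tumor and treated skin. Between tumor and treated skin 0 of 7 were called, against 0.0118% of all genes. An unadjusted p under 0.05 was found for 3 of the 7, against 2243 of 17017 genes. For Gli2 the log2 fold change in ΔEP mice exceeded that in fl/fl mice by 1.31 (SE 0.35, adjusted p = 0.207). The differences were 0.91 for Gli3 (SE 0.36, adjusted p = 0.315) and 0.87 for Smo (SE 0.39, adjusted p = 0.361). Those of Shh (-2.29, adjusted p = 0.598), Gli1 (-1.64, adjusted p = 0.467), Ptch1 (0.32, adjusted p = 0.782) and Sufu (0.20, adjusted p = 0.805) had no unadjusted p under 0.05. Smo passed with a difference of 1.37 (adjusted p = 0.00495) once fl/fl tumor replicate 1 was left out, a fit in which 7.53% of all genes were called.

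Other genes of the pathway were taken from a list of 39, of which 38 were in the table. Between treated skin and tumors 9 of 32 tested fell in fl/fl mice and none rose, where 10.5% of all genes were called lower. In ΔEP mice 9 of 33 fell and 2 rose, where 15.5% of all genes were called lower. The target Mycn, which drives proliferation, fell in both genotypes. It went from between 13.2 and 40.2 CPM in treated skin to between 1.71 and 2.68 CPM in tumors, a log2 fold change of -3.13 in fl/fl (adjusted p = 0.00221) and -3.60 in ΔEP mice (adjusted p = 0.00108). The ciliary gene Iqce also fell in both, with -2.16 in fl/fl (adjusted p = 0.00535) and -1.18 in ΔEP mice (adjusted p = 0.00723). So did Scube2, which helps release the ligand, with -2.28 in fl/fl (adjusted p = 0.0353) and -3.82 in ΔEP mice (adjusted p = 0.00108). In fl/fl mice the call for Scube2 was lost without any 1 of the treated libraries or without tumor replicate 2.

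The genes that rose in ΔEP tumors were the cell cycle gene Ccnd1, also a reported target, and the ligand gene Dhh. Ccnd1 measured 342, 312 and 299 CPM against between 90.6 and 118 CPM in treated ΔEP skin (log2 fold change 1.57, adjusted p = 0.000769). In fl/fl tumors it had 365 CPM in replicate 1 and 43.2 and 55.7 CPM in the others. Dhh was scarce, with 3.13, 5.26 and 3.99 CPM in ΔEP tumors against between 0.338 and 1.26 CPM (log2 fold change 2.46, adjusted p = 0.00611).

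By role, genes of ligand release had 2 of 3 tested called lower in fl/fl and 2 of 4 in ΔEP tumors. Over all genes 10.5% and 15.5% were called lower. Receptors and co-receptors had 1 of 4 and 2 of 4, ciliary genes 4 of 11 and 3 of 11, and reported targets 2 of 5 and 2 of 5. In ΔEP tumors 1 reported target (Ccnd1) and 1 gene of ligand release (Dhh) were called higher, against 1608 of 15289 genes. Of the kinases and repressors of GLI, edgeR's quasi-likelihood test called 0 of 9 in either genotype. An unadjusted p under 0.05 was found for 5 of 9 in fl/fl and 3 of 9 in ΔEP mice, against 6194 of 15362 and 7246 of 15289 genes. DESeq2 and the exact test also called 0. They called 21% and 23.3% of all genes in fl/fl mice and 25.9% and 27.6% in ΔEP mice. Over the whole list the median log2 fold change was -0.70 in fl/fl and -0.23 in ΔEP mice, against -0.02 and -0.03 over all genes.

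Against mock skin, Disp1 (-1.93, adjusted p = 0.0493) and Iqce (-2.13, adjusted p = 0.0363) were the 2 of 32 genes of the list that fell in fl/fl tumors, where 1.88% of all genes were called lower. In ΔEP tumors 4 of 33 fell, where 7.22% of all genes were called lower, among them Ccnd2 (-2.004, adjusted p = 0.0248) and Scube2 (-3.91, adjusted p = 0.0134), and Dhh rose (2.57, adjusted p = 0.0484). These calls were lost without fl/fl replicate 2 or 3 of either mock skin or tumors, and without any 1 of the ΔEP tumors. Without mock ΔEP replicate 1, Dhh had a log2 fold change of 1.88 (adjusted p = 0.0878).

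By edgeR's quasi-likelihood test 0 of the list were called between genotypes at any stage or between treated and mock skin. At most 3 had an unadjusted p under 0.05 in any of these comparisons, where between 253 and 1975 of all genes had one. DESeq2 and the exact test called 0 there as well, with at most 2.62% of all genes called.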

How the data were processed

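RNA-seq of sorted mouse epidermal cells was analyzed from 18 columns of raw counts per gene, which the authors deposited as whole numbers without normalization. The submitters' processing notes name mm10, Trimmomatic 0.36, STAR 2.5.3, HTSeq 0.9.1 and DESeq2, and the table's name points to featureCounts. The annotation release, the use of strand and the handling of duplicate reads are not given in the sources used here. No column lay outside the design.

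The statistics were done with edgeR 4.0.16 and limma 3.58.1 (R 4.3.3). Each comparison used only its own groups, filterByExpr with its default minima, TMM scaling and the two-sided quasi-likelihood F test, and p-values were adjusted by Benjamini-Hochberg across all genes tested. Calls needed an adjusted p below 0.05 and a level changed more than 2-fold. Log2 CPM for correlations used a prior count of 2. Intervals and floors (3 counts) cover counting error only. Of 52636 gene IDs, 52489 were found in GENCODE vM21. DESeq2 1.42.0, edgeR's exact test, RLE scaling, other filters, a fit of all libraries, a replicate block and single libraries left out were alternatives. Counting the identical columns as 2 libraries and leaving out mock replicate 1 of both genotypes were chosen after seeing the data. The procedures were tested on simulated data.

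The members and all gene lists were chosen with earlier results of these data known. Named were all members, up to 3 called pathway genes a direction in each comparison by smallest p, the 3 genes most alike to each of 5 members, and Zfp36, and 1 gene that this rule names is not reported here. Dcn, Pdgfra and the other single markers were named after their values were seen.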

Additional observations from a re-analysis of the deposited data

How the results depend on the processing

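Of 82 values of members over the 12 comparisons, 11 were called. None of these changed sign in their 145 alternative values, and 8 stayed past the call in every alternative. The 145 count each member in each setting, and members of a comparison share the same fits, so the number of fits is smaller. The exceptions were Gli3 between treated skin and tumors in fl/fl mice, and Ptch1 and Gli1 between mock skin and tumors in ΔEP mice. Of the 71 uncalled values, 32 changed sign in at least 1 alternative and 14 were called in at least 1. The counts of members called were 5 and 4 for tumors against treated skin, and ranged from 4 to 7 in fl/fl and from 4 to 5 in ΔEP mice with single libraries left out. Those fits called 7.21% to 24.3% of all genes in fl/fl and 17.5% to 29.2% in ΔEP mice. For tumors against mock skin in fl/fl mice the count of 0 became 6 without the low-count filter, 3 with DESeq2, 2 with edgeR's exact test, 4 in a single fit of all libraries, 1 without mock replicate 1, and 0 to 1 with single libraries left out. Calls over all genes rose from 632 to 2595, 2201, 2058, 3205 and 3277 in the first 5 of these fits, and ranged from 30 to 3277 with single libraries left out. In ΔEP mice the count of 2 became 4 without the filter and 1 with a mean count of at least 10, with 13.1% and 12.7% of all genes called. It became 1 with the replicate block and 1 with the identical columns as 2 libraries, with 6.24% and 25.5% called. Leaving out any 1 of the ΔEP tumors ended both calls, with 0.709% to 2.75% of all genes called. Leaving out single libraries gave 0 to 4 members for treated against mock skin in fl/fl mice, with 0% to 15.1% of all genes called. Leaving out mock replicate 1 of both genotypes gave 4, with 15.1% called. Single libraries left out gave 0 to 1 for the genotypes in tumors, with 0% to 16.9% of all genes called. They gave 0 to 1 for the interaction of genotype with tumor and treated skin, with 0% to 7.53% called. That interaction also gave 1 without the filter (Gli2), with 2.76% called. The cause was not tested.

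Values that changed sign were uncalled and had adjusted p of at least 0.6808 with all libraries. In treated skin, with single libraries left out, the log2 difference between genotypes ranged from -0.36 to 0.080 for Gli3, -0.086 to 0.14 for Sufu, -0.068 to 0.49 for Ptch1 and -0.40 to 0.50 for Gli1. Between treated and mock fl/fl skin it ranged from -0.31 to 1.15 for Ptch1 and -0.29 to 4.47 for Shh. Between tumors and mock skin in ΔEP mice it ranged from -0.20 to 0.45 for Sufu, -0.21 to 0.021 for Smo and -1.03 to 1.26 for Gli3. Leaving out mock replicate 1 of both genotypes, for ΔEP mice the same fit as without mock ΔEP replicate 1, gave 0.021 for Smo and 1.26 for Gli3. A mean count of at least 10 gave -0.044 for Sufu.

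Same-numbered libraries of the genotypes deviated together with r of -0.167, -0.125 and -0.546 in treated skin and 0.138, 0.255 and -0.0707 in tumors, so the numbers were not taken as pairs. The 2 mock pairs had r of 0.782 and 0.569, but fl/fl replicate 3 and ΔEP replicate 2 had r of 0.721. With 2 ΔEP mock libraries each r comes with its opposite for the other library, so these values cannot show pairing by number. The block gave 110 calls over all genes between genotypes in mock skin, against 0, with no member among them. With the replicate block 5 and 4 members were called for tumors against treated skin in fl/fl and ΔEP mice, 0 and 1 against mock skin, and 0 in the other comparisons. Over all genes the block called 11.9% and 25.4% against treated skin and 1.59% and 6.24% against mock skin. RLE scaling changed no count of members.

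Over all genes the calls moved widely with the settings. With edgeR's quasi-likelihood test the genotypes gave 4 calls in tumors (0 to 2613 over all alternatives) and 1 in treated skin (0 to 218), and their interaction for tumor and treated skin gave 2 (0 to 1352). Tumors against mock skin gave 632 (30 to 3277) in fl/fl and 2144 (101 to 4573) in ΔEP mice, and tumors against treated skin gave 2764 (1106 to 4316) in fl/fl and 3973 (2823 to 5509) in ΔEP mice. Shh, Hhip and Gli1 had few counts in tumors, at most 20 in a library, which limits the precision of their folds. Groups of 3 libraries were too small for a test of single outlying values.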
